A study of Rattus norvegicus with 8 samples.

Results

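MicroRNAs (miRNAs) are short RNAs that pair with messenger RNAs, mainly through bases 2 to 8 of the miRNA, the seed, and lower their translation or stability. They are cut from hairpins and are numbered in the order in which they were registered, so a high number marks a late entry, found mostly by deep sequencing and often of low abundance. The members described here are the rat miRNAs of the array with a number of 2000 or more, whatever their letter or strand. They were 112 of the 758 rat miRNAs measured (14.8%) and carried 86 numbers from 2985 to 7578. The highest number below the limit was 1956, and both of its miRNAs were detected on 0 arrays.

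The tissue was the prostatic urethra of male Sprague Dawley rats aged 10 to 12 months, taken 5 days after surgery. The animals of the TULP group had their prostatic urothelium vaporized by a thulium laser, a simulated transurethral laser prostatectomy, and those of the sham group received an abdominal incision alone. The TULP animals also had the bladder opened, irrigated and sutured, and a microcystoscope passed into the urethra. The laser and these steps cannot be told apart in the comparison of the groups. Each group held 4 arrays with 1 animal per array, so the number of arrays limits the precision. The free-text notes on the TULP samples call the operation a sham, against their titles and treatment fields, and the groups here follow the titles. All 8 arrays lay on 1 slide, with sham replicate 4 and TULP replicates 1, 2 and 3 in its first row. The summed signal of all detected miRNAs, in intensity units, was 21075 to 37357 on the sham arrays and 16787 to 19464 on the TULP arrays. Of marker miRNAs listed for the tissue, all 6 epithelial ones and both smooth muscle ones were detected on all 8 arrays, as were 4 of 5 for striated muscle. miR-499-5p of the striated muscle list was detected on 0 arrays.

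Few of the late-numbered miRNAs gave a signal. A miRNA counted as detected on an array when the total signal of at least 1 of its probes exceeded 3 times its error. Of the 112 members, 12 (10.7%) were detected on at least 1 array, against 173 of the other 646 rat miRNAs (26.8%). On all 8 arrays, 7 members (6.25%) and 115 others (17.8%) were detected. The 7 were miR-2985, miR-3085, miR-3473, miR-3573-3p, miR-3584-5p, miR-6216 and miR-6328. miR-3562 was detected on 5 arrays, miR-3588 on 3, miR-3544 and miR-3549 on 2 each and miR-3547 on 1. With miR-2985 set aside, the members were split by number into 3 classes of 19, 66 and 26 miRNAs, from the lowest numbers to the highest. Of these 2, 7 and 2 were detected on some array, rates of 7.69% to 10.6%.

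RefSeq placed 100 of the 112 members on the rat assembly GRCr8. The mature sequences of the 8 members detected on at least 4 arrays, which carry the comparison of the groups, are shown 5′ to 3′ with the seed in capitals.
miR-2985: uGUUAUAGuaucccaccuaccc
miR-3085: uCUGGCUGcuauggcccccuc
miR-3473: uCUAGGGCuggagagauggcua
miR-3562: uUGGGGCAguggcuggauggga
miR-3573-3p: uUCCUAACucugcccccucccau
miR-3584-5p: gGGAGGAGuccaggaggc
miR-6216: gAUACACAgaggcaggaggagaa
miR-6328: aGGCCUGCucugagcccccgc

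None of these 8 seeds was shared with another miRNA of the array that RefSeq lists. Over all members with a RefSeq sequence, 4 shared a seed with a lower-numbered miRNA. They were miR-3065-5p with miR-7a-1-3p, miR-3084c-3p with miR-192-3p, miR-3573-5p with miR-423-5p and miR-3596d with passenger strands of let-7 and miR-98, and all 4 were detected on 0 arrays.

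The 8 detected members came from 8 separate hairpins. miR-2985 lay at chr2:168254526-168254547 on the minus strand, between the ends of Gria2, which encodes a subunit of AMPA glutamate receptors. miR-3473 lay at chr13:42051730-42051751 on the plus strand within the span of Zranb3, which encodes a DNA helicase of replication fork repair. miR-3573-3p lay at chrX:68299322-68299344 on the plus strand within the span of Efnb1, which encodes ephrin-B1, a membrane-bound ligand of Eph receptors. miR-3562 lay at chr10:105848002-105848023 on the minus strand within the span of Cep131, which encodes a centrosomal protein. miR-3584-5p lay at chr1:256727582-256727599 on the minus strand within the span of Itprip, and miR-6328 at chr20:2890159-2890179 on the plus strand within the span of Ppp1r18. miR-3085, at chr1:251038197-251038217, and miR-6216, at chr3:65165595-65165617, both on the minus strand, lay within no other gene of the annotation. The annotation used gives the span of each gene, so exon and intron were not told apart.

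The probes of the members were fewer and, where detected, richer in G and C. A member had 2 probes in 108 of 112 cases (96.4%), against 75.2% of the other rat miRNAs, and 4 probes in 2 cases, against 130 of the 646 others. Each member had 16 spots, shared among its probes, which gave 1792 member spots per array, and 0 of them were saturated. The median GC content of a probe was 65.5% over the detected members and 50% over both the undetected members and the other rat miRNAs. The median probe length was 14 bases over the detected members and 16 bases over the undetected ones. The 11-base and 12-base probes of miR-6328 held 81.8% and 83.3% G and C.

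Runs of G in the probe went with detection. Of the 8 members with a run of 4 or more G in a probe, 4 (50%) were detected on some array, against 5 of the 88 members whose longest run was 0 to 2 (5.68%). Among the other rat miRNAs the same shares were 16 of 21 (76.2%) and 134 of 548 (24.5%). A higher share at long G runs was thus seen in both sets. The grouping by G run was chosen after the values were seen and was not tested, and the miRNAs within a class are not replicates.

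**Figure D1:**
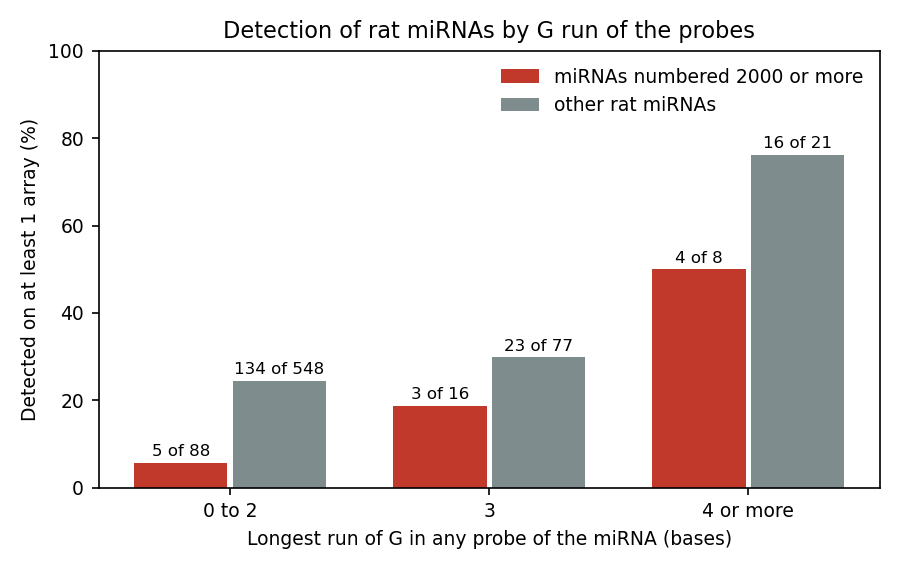
Share of rat miRNAs detected on at least 1 array (y axis, percent) by the longest run of G in any of their probes (x axis, bases), for miRNAs numbered 2000 or more and for all others, with the counts above the bars. In both sets the bar for 4 or more G is the tallest, 4 of 8 members and 16 of 21 others.

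The probe pairs of 4 members detected on all 8 arrays carried runs of 3 to 5 G. They are shown 5′ to 3′, shorter probe first, with runs of 3 or more G in capitals, because these 4 had the steadiest totals among the members.
miR-2985, shorter: GGGtaggtGGGatac
miR-2985, longer: GGGtaggtGGGatact
miR-3085, shorter: gaGGGGGccatag
miR-3085, longer: gaGGGGGccatagc
miR-3573-3p, shorter: atGGGaGGGGGca
miR-3573-3p, longer: atGGGaGGGGGcag
miR-6328, shorter: gcGGGGGctca
miR-6328, longer: gcGGGGGctcag

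The probes of miR-3473 and miR-6216, the brightest members, held no run of 3 G.
miR-3473, shorter: tagccatctctccag
miR-3473, longer: tagccatctctccagc
miR-6216, shorter: ttctcctcctgcct
miR-6216, longer: ttctcctcctgcctc

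In each pair the longer probe reached 1 base further into the miRNA. For miR-3473 the mean spot signal over the 8 arrays was 85.4 for the longer probe and 3.94 for the shorter, which was detected on 0 arrays, so no fold is given. For miR-6216 the spot signal of the longer probe was 6.50 times that of the shorter, which was detected on 6 arrays. For the pairs with G runs the ratio was close to 1, at 0.988 for miR-2985, 0.974 for miR-3085, 0.949 for miR-6328 and 0.864 for miR-3573-3p. It was also 1.00 for miR-3584-5p, whose longest run was 2 G. Over 66 lower-numbered miRNAs with both probes of such a pair detected on all 8 arrays, the median ratio was 3.65 and the quartiles were 2.21 and 5.33. Of these 66, 6 (9.09%) had a ratio from 0.8 to 1.25, as did the 4 members with both probes detected on all 8 arrays, which were the 4 with G-run pairs. These ratios were computed after values had been seen, and no test was made of them.

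The total signal of the 4 members with G-run pairs varied less between arrays than that of most miRNAs detected on all of them. Before any normalization, the total of miR-6328 was 14.9, 15.3, 12.9 and 14.9 across the sham arrays, against 15.4, 15.6, 14.8 and 15.5 across the TULP arrays. That of miR-2985 was 18.0, 17.1, 13.9 and 18.2 in the sham group and 18.2, 17.6, 17.4 and 19.3 in the TULP group. In both miRNAs the groups overlapped, and sham replicate 3 was the lowest of the 8 arrays. That of miR-3573-3p was 12.4, 12.7, 9.66 and 12.9 against 12.2, 13.4, 13.3 and 13.5, again with overlap. That of miR-3085 was 12.0, 11.8, 8.79 and 12.6 against 13.3, 13.0, 13.2 and 14.4, and here all 4 TULP arrays lay above all 4 sham arrays. Sham replicate 3 was the lowest array for these miRNAs too.

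Over the 122 miRNAs detected on all 8 arrays, the coefficient of variation (SD over the mean) was lowest for miR-6328 at 5.91%, followed by miR-2985 at 9.17% and miR-3573-3p at 9.99%. miR-3085 stood at rank 5 with 13.4%. Rank 4, miR-702-3p at 11.5%, was a lower-numbered miRNA with a run of 4 G in its probes and a probe ratio of 0.903, named here after its values were seen. The median of the 115 other miRNAs was 37.0% (range 11.5% to 72.4%), and it was 38.1% over the 64 of them no brighter than the brightest member. miR-6216 stood at rank 15 with 23.4%, miR-3473 at rank 40 with 29.8% and miR-3584-5p at rank 58 with 34.2%. A run of 4 or more G alone did not go with a small spread in the 11 other miRNAs with such a run, whose median was 39.8%. Runs of 3 G, as in miR-2985, lay outside that class. Over the 6 lower-numbered miRNAs with a ratio from 0.8 to 1.25, the median was 40.8%. Of these 6, 2 had a run of 3 or more G, miR-702-3p and miR-30d-5p. The spread of miR-30d-5p, with a run of 4 G and a ratio of 1.23, was 39.8%, so the 2 stood apart. These spreads describe 8 arrays and were not tested.

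**Figure D2:**
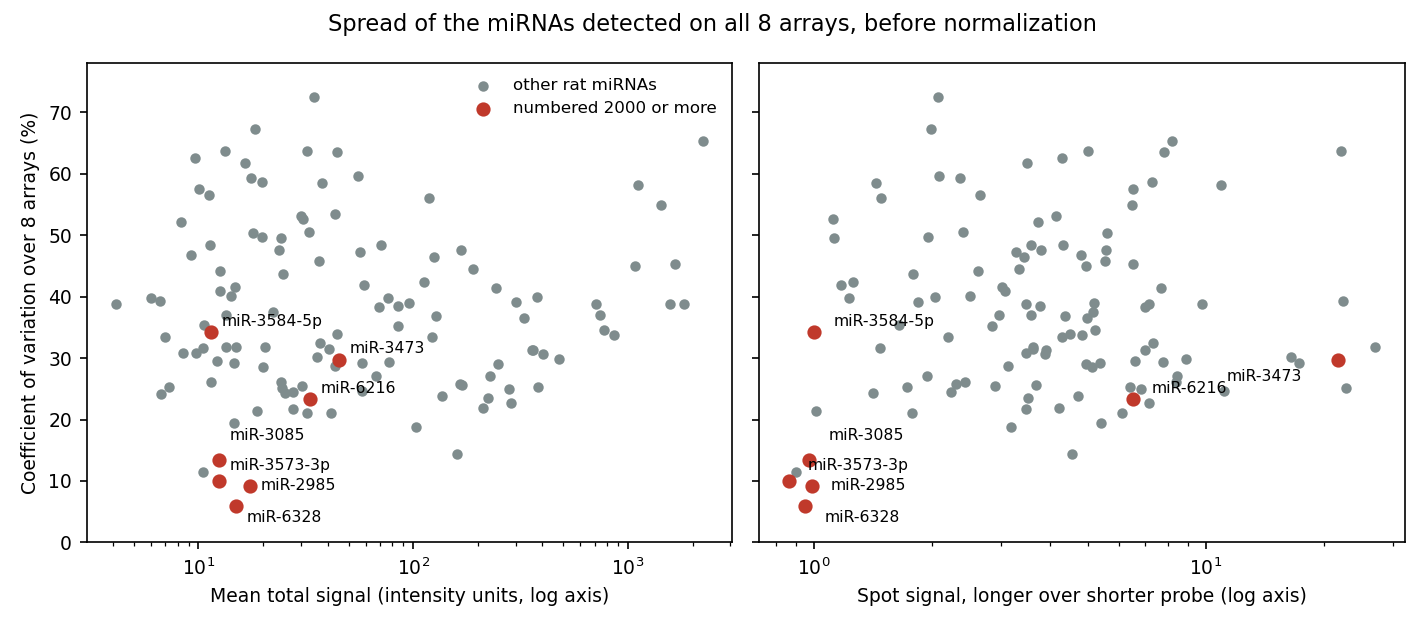
Coefficient of variation over the 8 arrays (y axis, percent) of the 122 miRNAs detected on all of them, before normalization, against mean total signal (left, intensity units, log axis) and, for those with a pair of probes 1 base apart, against the spot signal of the longer over the shorter probe (right, log axis). miR-6328, miR-2985, miR-3573-3p and miR-3085 lie at 5.91% to 13.4% with ratios of 0.864 to 0.988, while miR-3473 and miR-6216 lie among the other miRNAs. The shorter probe of miR-3473 was detected on 0 arrays, so its place on the right-hand axis is uncertain.

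miR-3473 was the brightest member and the single one called different between the groups. Its total signal was 38.1, 34.3, 33.2 and 37.3 across the sham arrays, against 74.0, 44.4, 49.2 and 52.1 across the TULP arrays, so all TULP arrays lay above all sham arrays and TULP replicate 1 was the highest. After quantile normalization the log2 signal was 5.46, 4.82, 4.92 and 4.78 in the sham group and 6.35, 5.74, 6.16 and 6.16 in the TULP group. The log2 change was 1.11 ± 0.19 (SE, n = 4 per group), a 2.15-fold rise (limma, adjusted p = 0.0071). The change was 1.30 (limma adjusted p = 0.17) within the first slide row and 1.09 (limma adjusted p = 0.18) within the second, where 1 array stood against 3, and the limma adjusted p was 0.026 with the row as a block. The call was lost on the stored totals (0.89, under 2-fold), with normexp background correction (0.52, under 2-fold), without a detection filter (limma adjusted p = 0.066), without normalization (0.60, limma adjusted p = 0.058) and with scaling to the labelling spike-in (0.37, limma adjusted p = 0.17). The longer probe carried the signal, at 62.6 to 71.7 per spot on the sham arrays and 83.5 to 139 on the TULP arrays. The shorter probe read 2.16 to 4.06 and 3.32 to 6.20 and was detected on 0 arrays. In bulk tissue, a difference in how many cells hold a miRNA and a difference in its amount per cell cannot be told apart.

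The levels of cell type markers are given beside this change, as totals before normalization. On that scale the median ratio of the TULP mean to the sham mean was 0.655 over the 115 miRNAs outside the members detected on all arrays. The summed total of the leukocyte markers was 55.7 to 104 on the sham arrays and 92.5 to 134 on the TULP arrays, with 3 of the 6 detected on all 8 arrays and miR-142-5p on 0. miR-223-3p, a miRNA of neutrophils and other myeloid cells, read 16.7 to 22.2 in the sham group and 44.3 to 70.8 in the TULP group. miR-142-3p, detected on 6 arrays, read 0 to 5.78 in the sham group and 5.97 to 13.9 in the TULP group. The lymphocyte miRNA miR-150-5p stood the other way, at 18.4 to 46.3 in the sham group and 12.1 to 12.7 in the TULP group. miR-146a-5p overlapped, at 20.1 to 35.1 and 21.7 to 31.1. So did miR-155-5p, detected on 4 arrays, at 0 to 4.86 and 0 to 6.42. Striated muscle markers summed to 4710 to 9923 and 2152 to 3651, smooth muscle markers to 797 to 1130 and 408 to 952, and epithelial markers to 591 to 813 and 287 to 769. For red blood cells, miR-144-3p was detected on 0 arrays, and the sum was 14.8 to 23.8 and 0 to 22.4. The part of these markers in the change of miR-3473 was not tested.

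Among the miRNAs of the array with a RefSeq sequence, miR-3473 shared letters with the most gene promoters. A stretch of 14 bases of its mature sequence occurred, on either strand, in 138 of 33469 RefSeq promoter windows of GRCr8 (0.412%), each from 250 bases before to 50 bases after a gene start. This was the highest count of the 685 miRNAs of the array with a RefSeq sequence, and the only one above 100. The median miRNA matched 0 windows. The next highest was miR-466b-3p with 47, and miR-6216 stood next among the members with 13. miR-6328 matched 8 windows and miR-2985 matched 0. A match describes shared letters and does not show which transcript bound the probe.

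Of the 151 miRNAs detected on at least 4 arrays and tested, 14 (9.27%) had an adjusted p under 0.05 and changed by over 2-fold, 8 of them (57.1%) higher in the TULP group. Among the 8 members tested, 1 was called, a share of 12.5%. Without normalization 34 miRNAs were called, 14.7% of them higher, with scaling to the labelling spike-in 53 with 9.43% higher, and on the stored totals 12 with 41.7% higher. At the adjusted p alone, 46 miRNAs (30.5%) passed, 21 upward (13.9% of those tested). Among the 8 members, 5 (62.5%) passed, all higher in the TULP group. In the same 5 members the normalized values of the TULP arrays lay above those of all sham arrays, as they did in 14.6% of all miRNAs tested. Before normalization this held for miR-3473 and miR-3085, and the groups overlapped for the other 3. The median log2 change was 0.54 over the 8 members and -0.02 over all 151 miRNAs.

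Besides miR-3473, the 5 were the 4 members with G-run pairs. After normalization miR-3085 changed by 0.71 ± 0.13 on the log2 scale (SE, n = 4 per group, limma adjusted p = 0.0094). miR-6328 changed by 0.57 ± 0.13 (limma adjusted p = 0.016) and miR-3573-3p by 0.54 ± 0.11 (limma adjusted p = 0.012). miR-2985 changed by 0.53 ± 0.12 (limma adjusted p = 0.016). These rises of 1.45-fold to 1.63-fold stood against smaller differences of the totals before normalization. There the TULP mean was 1.06 times the sham mean for miR-6328, 1.08 times for miR-2985 and 1.10 times for miR-3573-3p, with overlapping groups. For miR-3085 it was 1.19 times, with all TULP arrays above all sham arrays. Over the 115 other miRNAs detected on all arrays the median of that ratio was 0.655.

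Without normalization the log2 changes of these 4 were 0.08, 0.12, 0.14 and 0.27 in the same order, with limma adjusted p of 0.71, 0.62, 0.56 and 0.30, and that of miR-3473 was 0.60 (limma adjusted p = 0.058). The median of all 151 tested miRNAs was then -0.55, a shift of all values with the scaling. Relative to that median, the 4 members lay 0.64 to 0.82 higher without normalization and 0.55 to 0.73 higher after it, and miR-3473 lay 1.15 and 1.13 higher. With scaling to the labelling spike-in, miR-6328, miR-2985 and miR-3573-3p turned to -0.15, -0.11 and -0.09, miR-3085 stood at 0.04, and 0 of the 8 members passed. The spike-in itself read 375 to 413 on the arrays of the first slide row and 263 to 347 on those of the second. TULP replicates 1, 2 and 3 and sham replicate 4 lay in the first row, so this scaling partly mixes slide row with group. Scaling by 1 factor per array moves all miRNAs of that array alike, so it shifts the level of the members together with the median and leaves the distance between them nearly as it was by construction.

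**Figure D3:**
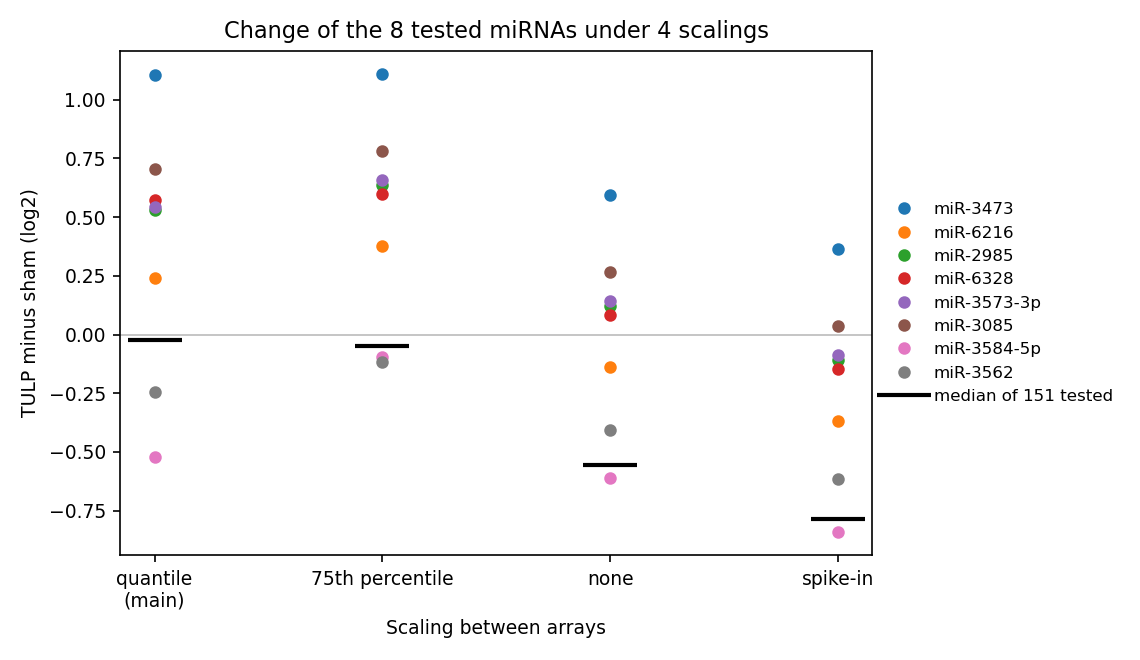
TULP minus sham on the log2 scale (y axis) of the 8 tested members, 1 point each, under 4 scalings of the arrays (x axis), with the median of all 151 tested miRNAs as a bar. The median drops from -0.02 with quantile normalization to -0.55 without it, and miR-3473 stays the highest of the 8 points in each setting.

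The other 3 tested members did not pass. The total of miR-6216 was 28.5, 37.4, 30.4 and 40.3 across the sham arrays, against 46.7, 25.8, 29.7 and 24.9 across the TULP arrays, and TULP replicate 1 was the highest array. Its log2 change was 0.24 ± 0.17 (SE, n = 4 per group, limma adjusted p = 0.36). miR-6216 and miR-3473 were both highest on TULP replicate 1, yet the other 3 TULP arrays lay below at least 3 sham arrays for miR-6216 and above all sham arrays for miR-3473.

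The total of miR-3584-5p was 13.9, 9.11, 17.3 and 13.7 in the sham group and 11.1, 4.19, 11.7 and 10.1 in the TULP group. TULP replicate 2 was the lowest. Its total counted 1 of the 2 probes, since the other was not detected there, although the spots of the probes read 7.37 and 7.88. The log2 change was -0.52 ± 0.61 (SE, n = 4 per group, limma adjusted p = 0.61), and 0.11 without that array. On the totals stored in the scanner files, which gave 17.6 on that array, the log2 change was 0.22. Among the tested members this was the one whose normalized log2 change differed in direction between stored and rebuilt totals.

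miR-3562 was detected on sham replicates 1, 2 and 3 with totals of 9.13, 10.1 and 10.9, and on TULP replicates 3 and 4 with 12.4 and 12.5. It was not detected on sham replicate 4 or on TULP replicates 1 and 2. The groups overlapped, and the log2 change was -0.25 ± 0.91 (SE, n = 4 per group, limma adjusted p = 0.91). The arrays without a call were not alike, since the shorter probe read 3.73, 0.84 and 7.31 per spot on them.

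**Figure D4:**
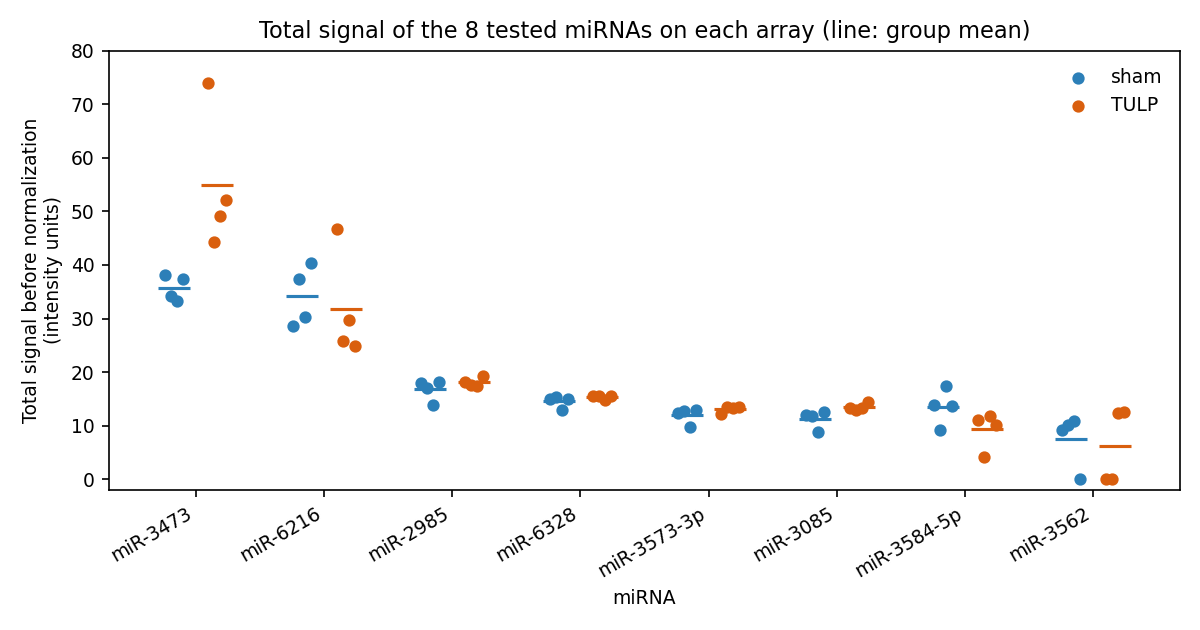
Total signal before normalization (y axis, intensity units) of the 8 tested members on each array, 1 point per array, with a line at the group mean. The TULP points lie above the sham points for miR-3473 and miR-3085, the groups overlap for the other 6, and a point at 0 for miR-3562 is an array on which it was not detected.

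The other 4 members were detected on at most 3 arrays. miR-3588 had totals of 5.56 and 5.45 on sham replicates 1 and 2 and 11.9 on TULP replicate 3. miR-3544 read 4.14 and 4.31 on TULP replicates 2 and 4. miR-3549 read 3.54 on sham replicate 1 and 4.77 on TULP replicate 1, and miR-3547 read 3.73 on sham replicate 1 alone. None of these 4 was tested. The total of miR-3588 on TULP replicate 3 was close to the mean total of miR-3573-3p, 12.5, and the other totals of the 4 lay between 3.54 and 5.56.

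The members as a whole took a small part of the signal. The number of members detected was 11, 9, 8 and 7 across the sham arrays, against 8, 8, 9 and 9 across the TULP arrays, a difference of -0.25 (two-sided exact permutation test over 70 labellings, p = 1). Their summed total was 160, 153, 137 and 150 in the sham group and 196, 138, 174 and 167 in the TULP group, a log2 difference of 0.16 (exact permutation p = 0.20). Their share of the summed signal was 0.758%, 0.606%, 0.469% and 0.402% across the sham arrays, against 1.01%, 0.788%, 1.03% and 0.957% across the TULP arrays, with all TULP arrays above all sham arrays. The log2 difference of the share was 0.80 (exact permutation p = 0.0286, which is the minimum for a design of 4 and 4 arrays, and 0.0857 after Benjamini-Hochberg adjustment over these 3 tests). Without miR-3473 it was 0.62 (exact permutation p = 0.0571). The share moved with the denominator, since the summed signal of all miRNAs was lower on each TULP array than on any sham array.

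Of the members with a RefSeq entry, 35 were antisense to another miRNA, 29 of them on the strand opposite a hairpin and 6 by a reverse complement of at least 14 bases. Such RNAs arise when both strands of a hairpin locus are transcribed. miR-3588 was counted among the 6, although the annotation places the gene Mir125b2 over its position. For 34 of the 35 a lower-numbered miRNA held a reverse complement of at least 14 bases, and for 33 that complementary strand was on the array. It was detected on all 8 arrays for 13 of the 33, and of those 13 antisense members 1, miR-3588, was detected on any array. Besides it, miR-3544 and miR-3549 were detected on some array, and 0 of the 35 on at least 4. The pairs below, chosen after their values were seen, had some of the brightest sense miRNAs and are complementary over 22 bases, with the seed in capitals.
miR-3596a: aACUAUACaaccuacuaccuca
let-7a-5p: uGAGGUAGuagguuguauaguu
miR-3588: uCACAAGUuagggucucaggga
miR-125b-5p: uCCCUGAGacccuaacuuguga

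The mean total was 857 for let-7a-5p, a miRNA abundant in differentiated tissues, and miR-3596a was detected on 0 arrays with a mean spot signal of 1.75. It was 709 for miR-125b-5p, against the 3 arrays of miR-3588. It was 2228 for the striated muscle miRNA miR-1-3p and 284 for miR-29a-3p, a miRNA known to target collagen transcripts, and their antisense members miR-3571 and miR-3556a were detected on 0 arrays. The median spot of the antisense members lay 1.67 SD below the mean of the negative control spots, and that of the other members with a RefSeq entry 1.82 SD below it. On chromosome 6, in the imprinted Dlk1-Dio3 cluster, miR-3544 was detected on 2 arrays while both strands of its sense hairpin, miR-337, were detected on 0.

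Most of the 100 undetected members gave spot signals below the level of the negative control spots. Averaged over its probes and the 8 arrays, the spot signal of 96 of them was below the mean of the negative control spots. The median lay 1.91 SD of the negative control spots below that mean, against 1.69 SD for the undetected lower-numbered miRNAs. The brightest probe of 0 of the 100 reached 1 SD above it. The 5 highest were miR-6333 at 0.97 SD, miR-3102 at 0.77 SD, miR-3593-3p at 0.29 SD, miR-3584-3p at 0.23 SD and miR-3084a-3p at 0.0052 SD. The miR-3584 hairpin thus gave a detected strand, miR-3584-5p at 3.98 SD averaged over its probes, and an undetected one.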

How the data were processed

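The deposited scanner files of a 1-colour Agilent array hold spot intensity values, linear, with the background subtracted and no normalization between arrays. The image software was Agilent Feature Extraction 10.7.1.1, per the file headers, and probe positions refer to rn4. A deposited table with quantile-normalized log2 values served as an alternative. The total of a miRNA was rebuilt as the sum of probe totals over 3 times their error, with 0 mismatches to the stored detection call, and set to 0.1 otherwise. Totals were quantile normalized over the 758 rat miRNAs, raised to a floor of 1.94, the median over arrays of the lowest detected value, and put on the log2 scale. The 151 miRNAs detected on at least 4 arrays entered a linear model with the group as its one term, moderated by eBayes of limma 3.58.1 (R 4.3.3), with Benjamini-Hochberg adjustment. A call needed an adjusted p under 0.05 and a change over 2-fold. Outlier spots were left out of spot means. Steps were tested on simulated data.

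The members, lists and tests were chosen with earlier results of these data known. Named were the members detected on any array, the 5 brightest undetected ones, seed and hairpin partners and the markers. Names and sequences came from RefSeq tables of GRCr8, which held 100 of the 112 members, and 204 of 206 of their probes matched the 3′ end of the mature sequence. Each array was taken as 1 animal. The same-numbered arrays share a number only. Alternatives covered stored totals, background, scaling, floor, filter, slide row, replicate number, each array left out, and the methods' t-test.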

Additional observations from a re-analysis of the deposited data

Results flagged for a closer look

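Single arrays stood apart from the other 3 of their group in 7 of the 38 groups of values checked, by a gap to the nearest array that took more of the range than Dixon's critical value for 4 samples. Chance alone would mark about 1 group in 20, and the raw and normalized values of a miRNA are not independent. For miR-3562, sham replicate 4 was undetected, at 0.1 before normalization and 0.96 on the log2 scale after it, against 3.01 to 3.39 on the other sham arrays. For miR-3584-5p, TULP replicate 2 lay at 1.11 against 3.56 to 3.71. For miR-6328, TULP replicate 1 lay at 4.43 after normalization against 4.14 to 4.16, sham replicate 3 at a total of 12.9 against 14.9 to 15.3, and TULP replicate 3 at 14.8 against 15.4 to 15.6. For miR-3573-3p, sham replicate 3 lay at a total of 9.66 against 12.4 to 12.9.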

How the results depend on the processing

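Leaving out 1 array at a time gave 10 to 22 called miRNAs, the 22 without TULP replicate 1, and kept the counts of 1 called member and 5 members past the adjusted p. Called miRNAs numbered 1 with normexp background correction, 34 without normalization, 53 with spike-in scaling, 8 with detection on all 8 arrays required, 4 without a filter, and 4 and 3 within the first and second slide rows. In these settings the called members were 0, except for 1 with detection on all arrays, and they were 0 on the stored totals too. Members past the adjusted p were 1 on the stored totals, 2 with normexp and 0 without normalization, with spike-in scaling, without a filter and within either row, where 1 array stood against 3. The other alternatives, among them the deposited table, the slide row as a block and the methods' t-test, gave 1 and 5. For miR-3473 the adjusted p ranged from 0.0030 to 0.18 over the alternatives that adjust it. With the replicate block, 11 miRNAs, 1 member and 5 members passed. The numbers only name the arrays, deviations of same-numbered arrays correlating from -0.10 to 0.27, with 2 of 4 sham arrays closest to their own number. The blocked share difference stayed 0.80, with a sign-flip p of 0.125, the smallest possible.

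The share difference ran from 0.65 to 0.96 over the arrays left out (exact permutation p up to 0.0571). It was 0.86 on stored totals and 0.62 without miR-3473, each with an exact permutation p of 0.0571. Within the first and second rows it was 1.22 and 0.67, where 1 array against 3 could not give a p under 0.05. The summed signal difference ran from 0.084 to 0.25, the 0.25 without TULP replicate 2 (exact permutation p = 0.0286). It turned to -0.014 without miR-3473 and to -0.070 with spike-in scaling. The difference in detected members ran from -0.83 to 0.50, the 0.50 without sham replicate 1, and was 0.75 by the deposited table and 1.33 within the first row. Values that changed sign, none past the threshold, were those of miR-3562 (0.015 with normexp, 0.0046 with double the floor, 0.80 with the row as a block, 0.97 and 0.64 within the rows, and -0.85 to 0.25 over the arrays left out), miR-3584-5p (0.22 on stored totals, and -0.71 to 0.11 over the arrays left out, the 0.11 without TULP replicate 2) and miR-6216 (-0.14 without normalization, -0.37 with spike-in scaling). With spike-in scaling miR-2985, miR-3573-3p and miR-6328 read -0.11, -0.087 and -0.15. The spike-in differed between the slide rows, so all values with this scaling partly mix slide row with group. The causes were not tested, and signals near the detection limit bound what can be read. This held among the 7 members seen on all arrays too. On TULP replicate 2 miR-3584-5p lay at 1.11 on the log2 scale, close to the floor of 0.96.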

Other observations

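Some member spots held very high readings that the scanner software had marked as outliers, so they were left out of the spot means. A spot of the shorter miR-3473 probe on TULP replicate 1 read 90318, where the other spots of that probe averaged 6.20. A spot of miR-3065-3p on sham replicate 1 read 3873 and a spot of miR-3542 on TULP replicate 1 read 2024, while the remaining spots of both probes averaged below 0.

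The totals stored in the scanner files were higher than the sum of detected probes for some members. For miR-3473 they read 54.7, 84.0, 55.2 and 62.3 across the sham arrays, against 111, 79.9, 81.7 and 82.7 across the TULP arrays, and sham replicate 2 then exceeded 3 of the 4 TULP arrays. For miR-6216 on TULP replicate 2 the stored total was 66.9 where the rebuilt one was 25.8. For miR-3544 on TULP replicate 2 it was 61.7 where the rebuilt one was 4.14.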
